A study of Homo sapiens with 9 samples.

Results

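HLA class I antigen presentation was followed through 9 genes: the heavy chains HLA-B, HLA-C, HLA-E and HLA-F, the light chain B2M, the peptide transporter subunits TAP1 and TAP2, the loading factor TAPBP, and the transactivator NLRC5. They were chosen by name, as the genes whose RefSeq transcripts are targeted by 15 non-control probes of the array, out of 42405 gene probes and 21832 genes tested. All 9 passed the filter on dim signals, which asked for a probe well above background throughout at least 1 group of 3 arrays, and 14 of the 15 probes passed it. In all, 6 of the 9 genes were down-regulated after 80 nM DIG-MSK, where 16.2% of all genes tested were, with falls of 1.72-fold to 3.73-fold on the probe used for each gene. A further probe of NLRC5, which is among the 6, fell 5.66-fold. None of the 9 was called changed after 8 nM, where 4.23% of all genes rose and 2.84% fell.

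The cells were A2780, a widely used ovarian carcinoma line of human origin. DIG-MSK is an analogue of the antitumor antibiotic mithramycin A, which binds C/G-rich DNA in the minor groove. The groups were untreated cells, cells given 8 nM DIG-MSK for 24 h and cells given 80 nM DIG-MSK for 24 h, with 3 arrays each from independent biological replicates of the same line. The labels give no vehicle for the untreated cells, and all 3 groups shared the same medium and line. Each RNA carried the single dye Cy3, with 1 array per sample. RNA was taken from whole cultures, so fewer living cells and less RNA per cell cannot be told apart.

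A class I molecule is a heavy chain held together by beta-2-microglobulin, the product of B2M, and a short peptide made by the proteasome. TAP1 and TAP2 form the pump that carries peptides into the endoplasmic reticulum, and tapasin, the product of TAPBP, bridges that pump to empty heavy chains. NLRC5 drives transcription of class I genes through a complex on their promoters, and interferon raises most of these genes through factors such as IRF1 and IRF9. HLA-B and HLA-C present peptides to cytotoxic T cells and are read by receptors on natural killer cells, while HLA-E and HLA-F are less variable heavy chains.

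The promoters of these genes are shown because DIG-MSK is a DNA-binding compound and because the genes moved unequally although their products work in the same pathway. RefSeq windows on GRCh38.p14 were found for 7 of the 9 genes, and the 250 bases before the gene start are given 5′ to 3′ on the strand of the gene. HLA-B (chr6:31357180-31357429, minus strand), HLA-F (chr6:29723184-29723433, plus strand) and TAP1 (chr6:32853705-32853954, minus strand) are the genes with the largest falls at 80 nM on the probe used for each gene, although a further probe of NLRC5, which has no window here, fell more. TAP2 (chr6:32838740-32838989, minus strand), B2M (chr15:44711267-44711516, plus strand) and TAPBP (chr6:33314079-33314328, minus strand) are the genes that were not called at 80 nM. Capitals mark each match, on either strand, to GGGCGG (GC box, the site of Sp1), a pair of TTTC runs with NN between them (core of the interferon-stimulated response element), ATTGG (inverted CCAAT box), TGACG (half-site of the cyclic AMP response element) or GGGNNTTCC (kappa B-like site).
HLA-B: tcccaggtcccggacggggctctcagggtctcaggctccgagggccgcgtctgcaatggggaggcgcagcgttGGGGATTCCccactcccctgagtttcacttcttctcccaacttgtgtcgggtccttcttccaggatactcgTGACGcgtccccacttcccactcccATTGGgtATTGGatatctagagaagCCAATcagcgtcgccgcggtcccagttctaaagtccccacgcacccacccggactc
HLA-F: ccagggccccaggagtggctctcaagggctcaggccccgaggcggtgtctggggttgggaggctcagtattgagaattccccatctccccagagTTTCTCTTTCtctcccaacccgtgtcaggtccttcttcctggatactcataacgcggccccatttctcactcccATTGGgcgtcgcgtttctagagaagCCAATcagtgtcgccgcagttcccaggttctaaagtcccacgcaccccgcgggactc
TAP1: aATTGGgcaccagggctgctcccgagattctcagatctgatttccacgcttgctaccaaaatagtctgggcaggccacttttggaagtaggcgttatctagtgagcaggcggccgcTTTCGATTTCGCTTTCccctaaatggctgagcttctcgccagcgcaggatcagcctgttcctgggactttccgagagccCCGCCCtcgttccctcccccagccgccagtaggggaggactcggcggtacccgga
TAP2: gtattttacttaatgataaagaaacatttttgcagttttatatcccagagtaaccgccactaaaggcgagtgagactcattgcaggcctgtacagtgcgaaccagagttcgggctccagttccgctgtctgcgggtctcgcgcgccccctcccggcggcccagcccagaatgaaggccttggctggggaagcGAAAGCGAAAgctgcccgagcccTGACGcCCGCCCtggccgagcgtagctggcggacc
B2M: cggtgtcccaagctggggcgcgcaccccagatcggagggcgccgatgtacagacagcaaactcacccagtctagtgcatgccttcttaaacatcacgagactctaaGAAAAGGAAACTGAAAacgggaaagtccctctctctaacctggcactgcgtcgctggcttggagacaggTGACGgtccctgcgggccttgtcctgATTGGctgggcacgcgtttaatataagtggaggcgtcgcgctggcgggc
TAPBP: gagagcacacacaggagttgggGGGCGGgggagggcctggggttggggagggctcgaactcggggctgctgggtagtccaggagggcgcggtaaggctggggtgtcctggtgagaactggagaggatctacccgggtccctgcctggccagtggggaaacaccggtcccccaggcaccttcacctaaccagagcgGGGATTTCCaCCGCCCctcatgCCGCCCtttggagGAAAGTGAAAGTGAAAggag

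The GC box was present in 4 of the 7 windows, in HLA-C, TAP1, TAP2 and TAPBP, against 42.6% of 35116 promoter windows of the same length. TAPBP held 3 matches, and the windows of HLA-B, HLA-F and B2M held none. The interferon-stimulated core was present in 5 of the 7 windows, in HLA-F, B2M, TAP1, TAP2 and TAPBP, against 3.02% of all windows. In B2M, TAP1 and TAPBP the 2 matches to this core overlap each other, and no match to one motif overlapped a match to another motif. ATTGG was found in 5 windows against 32.0% of all windows, TGACG in 4 against 21.2%, and GGGNNTTCC in 2, HLA-B and TAPBP, against 5.78%. That pattern allows only NN between GGG and TTCC. Kappa B-like sites with a further base there were not counted. Such a stretch stands in lower case in the TAP1 window and, on the other strand, in the B2M window. These matches are a description of the letters in the windows, and binding was not measured on these arrays.

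Levels below are log2 values of the background-subtracted intensity relative to the 75th percentile of the same array. They compare arrays for a given gene and not genes with each other. A gene was called when it changed at least 1.5-fold up or to at most 0.67-fold with an unadjusted limma p under 0.05, the limits of the study, and the adjusted p over all genes tested is given beside it. The untreated and 8 nM arrays were on slide 1 and the 80 nM arrays on slide 2 in another scan, so the effect of 80 nM and of the slide cannot be told apart. The 75th percentile of the intensity lay between 831.7 and 1170 on the 9 arrays, replicates of a group correlated between 0.989 and 0.996, and no gene probe was saturated.

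The cells carried the keratins KRT8, KRT18 and KRT19 and EPCAM well above background in every group, but not the epithelial or ovarian markers CDH1, MUC16 and WT1, which were not above background on any array. VIM and CDH2, markers of mesenchymal cells, were well above background on every array, and PAX8 on 1 array of each group. Some of these markers changed along with the 9 genes. CDH2 fell by 2.31 at 80 nM, or 4.97-fold (adjusted p = 6.8e-06), and EPCAM was up-regulated by 0.90 at 8 nM (adjusted p = 0.034) and fell by 0.91 at 80 nM (adjusted p = 0.0086), while VIM changed by 0.40 at 80 nM without a call. Of 12 leukocyte markers, 7 were well above background on all 3 untreated arrays and 6 on all 3 arrays at 80 nM, and CD80, ITGAX and MS4A1 were on no array. The summed level of the 7 that passed the filter, relative to the 75th percentile, was 3.28 to 3.52 in untreated cells, 2.85 to 3.63 at 8 nM and 2.66 to 3.07 at 80 nM. That sum follows mainly CD79A, at 1.46 on the log2 scale in untreated cells, with the others at -1.58 or lower. CD79A changed by -0.15 at 80 nM without a call. CD86, a costimulatory molecule of presenting cells, was among the 7 and fell below background at 80 nM, at least 18-fold lower than in untreated cells. Its limma adjusted p of 7.8e-05 belongs to the fitted change of -4.62, which uses values below background, and not to that bound. CD68, a marker of macrophages, was up-regulated by 1.25 or 2.39-fold at 80 nM (adjusted p = 6.4e-06), ITGAM changed by 0.50 and CD8A by 0.55 without a call, and the median change of the 7 markers was 0.19. The part of other cells in these results was not tested.

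The heavy chains were down-regulated by 80 nM DIG-MSK. HLA-B stood at 4.49, 3.85 and 4.03 on the untreated arrays, at 4.58, 4.26 and 4.04 on the 8 nM arrays and at 2.31, 2.41 and 2.44 on the 80 nM arrays. The 80 nM arrays all lay below every other array, and the untreated and 8 nM arrays overlapped. HLA-B fell by 1.74 ± 0.18 on the log2 scale (SE, n = 3 against 3), which is 3.34-fold, with an adjusted p of 8.9e-05. Before any scaling between arrays, the same probe read 15830 to 18740 intensity units on the untreated arrays and 4736 to 4965 on the 80 nM arrays. A further HLA-B probe fell by 1.98, which is 3.95-fold.

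HLA-F was the member with the largest fall on its main probe, from 3.18, 2.39 and 2.57 in untreated cells to 0.83, 0.79 and 0.81 at 80 nM. At 8 nM it stood at 3.55, 2.93 and 3.01, and those arrays overlapped with the untreated ones. It fell by 1.90 ± 0.22, or 3.73-fold, with an adjusted p of 0.00016. A dim HLA-F probe for another transcript was not well above background on any 80 nM array. Its level there was at least 1.27-fold lower than in untreated cells, taking the dimmest signal well above background as the floor, and its fitted change of -0.48 had an adjusted p of 0.22.

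HLA-C stood at 6.02, 5.47 and 5.53 on the untreated arrays, at 6.32, 5.83 and 5.78 on the 8 nM arrays and at 4.27, 4.31 and 4.35 on the 80 nM arrays. Its 80 nM arrays were again apart from the rest, and it fell by 1.36 ± 0.18 or 2.57-fold, with an adjusted p of 0.00031. HLA-E, whose product presents leader peptides of other class I chains, fell least among the heavy chains. It went from 3.87, 3.34 and 3.45 to 2.77, 2.74 and 2.81, with 4.09, 3.61 and 3.67 at 8 nM. The 80 nM arrays of HLA-E did not overlap with the others, and it fell by 0.78 ± 0.16 or 1.72-fold, with an adjusted p of 0.0036. Heavy chain transcripts resemble each other closely and vary between people, so a probe for one may bind another, which was not tested.

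B2M, the light chain shared by all class I molecules, was measured by 10 spots of a single probe, and these differed within an array by an SD of 0.050 to 0.068. Its levels were 4.93, 4.45 and 4.47 in untreated cells, 5.01, 4.68 and 4.80 at 8 nM and 4.34, 4.20 and 4.21 at 80 nM. The 80 nM arrays lay below the other arrays by a narrow margin. The change from untreated was -0.37 ± 0.14 by limma, with an adjusted p of 0.054, and this estimate did not reach the fold limit. Its 95% interval, from -0.69 to -0.040, extended past that limit. Between 8 nM and 80 nM the change was -0.58 ± 0.14 (adjusted p = 0.0081), at the fold limit, and the call was lost with median scaling (-0.57) and without 8 nM replicate 1 (-0.49) or without 80 nM replicate 2 (-0.56) or 3 (-0.56).

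**Figure D1:**
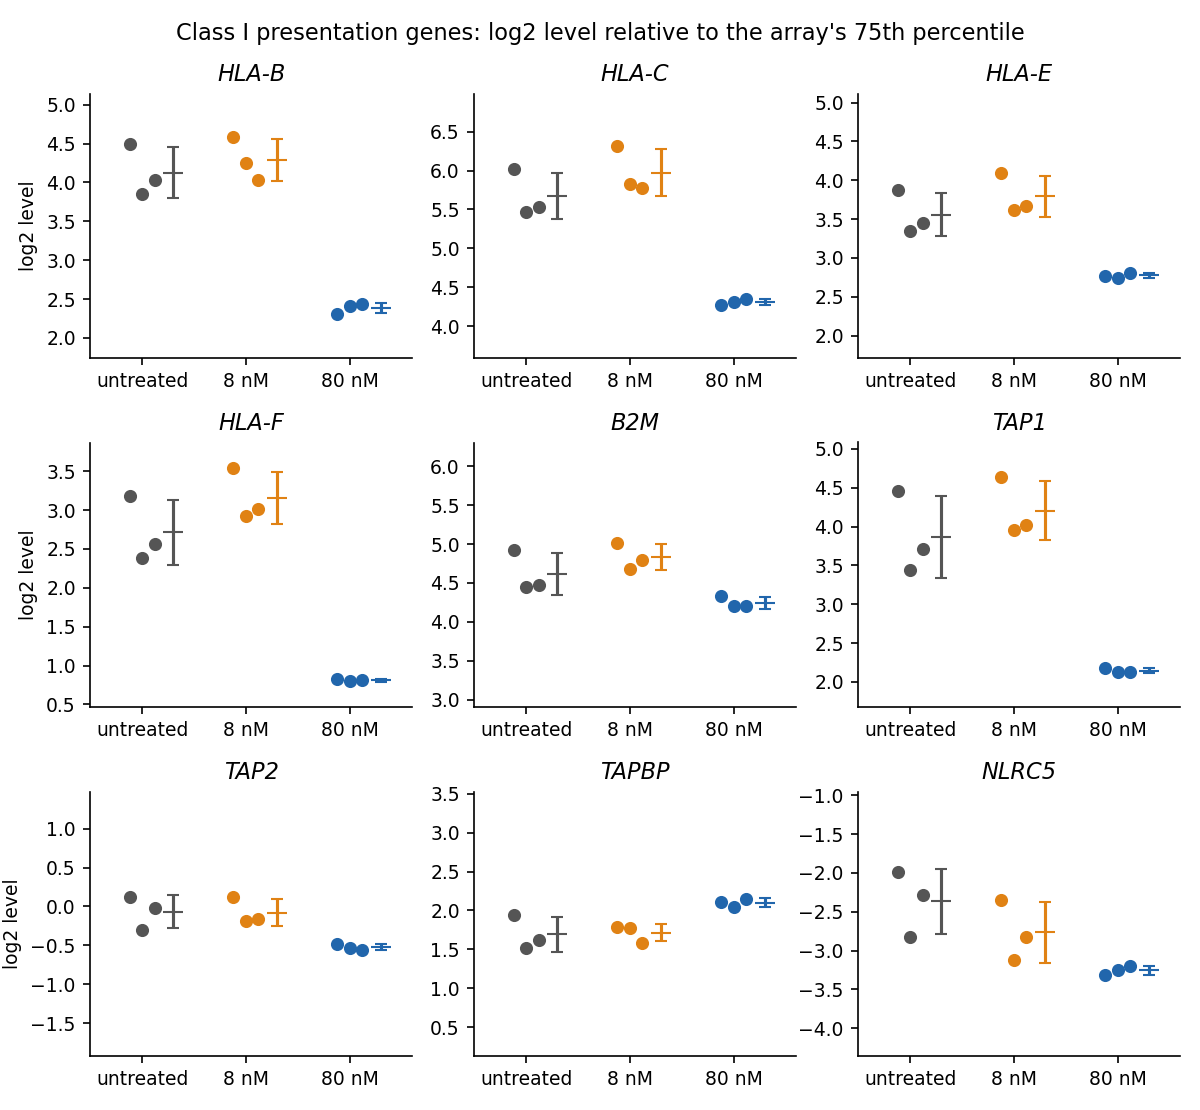
Log2 level of each of the 9 genes relative to the 75th percentile of its array, by group. Points are single arrays in the order of their replicate number, crosses with bars are the mean ± SD of 3 arrays, and every panel spans the same log2 range. The 80 nM points of HLA-B, HLA-C, HLA-F and TAP1 lie far below the others, those of TAPBP lie above, and replicate 1 is the highest array in the untreated group of all 9 genes.

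The subunits of the peptide transporter differed. TAP1 stood at 4.46, 3.44 and 3.70 on the untreated arrays, at 4.64, 3.96 and 4.02 on the 8 nM arrays and at 2.18, 2.13 and 2.13 on the 80 nM arrays. The 80 nM arrays were below all others and close to each other. It fell by 1.72 ± 0.27 or 3.30-fold, with an adjusted p of 0.00075. TAP2 went from 0.12, -0.30 and -0.015 to -0.48, -0.54 and -0.56, with 0.12, -0.19 and -0.16 at 8 nM. The untreated and 80 nM arrays did not overlap for TAP2, but the change of -0.46 ± 0.13 (adjusted p = 0.013) was under the fold limit, and it passed the limit without untreated replicate 2 (-0.58). The other TAP2 probe, for a different transcript, was not well above background on any of the 9 arrays.

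TAPBP was the member that was higher at 80 nM. Its main probe read 1.94, 1.52 and 1.62 in untreated cells, 1.79, 1.77 and 1.59 at 8 nM and 2.12, 2.04 and 2.14 at 80 nM. All 80 nM arrays were above all others, and the change of 0.41 ± 0.12, or 1.33-fold, had an adjusted p of 0.016 but was under the fold limit. Its other 2 probes gave 0.26 (adjusted p = 0.22) and 0.34 (adjusted p = 0.098).

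NLRC5 was down-regulated, with probes that disagreed in size. Its main probe stood at -1.99, -2.82 and -2.28 on the untreated arrays, at -2.34, -3.12 and -2.82 at 8 nM and at -3.31, -3.24 and -3.20 at 80 nM. The 80 nM arrays lay below all others, by little against the lowest 8 nM array. It fell by 0.88 ± 0.24 or 1.85-fold from untreated, with an adjusted p of 0.013, and the call was lost under normexp background correction (-0.56). The other NLRC5 probe, for the same transcript, fell by 2.50 ± 0.35 or 5.66-fold, with an adjusted p of 0.00042. Against 8 nM the main probe changed by -0.49 (adjusted p = 0.11), a call that appeared without 8 nM replicate 2 (-0.67), with spike-in scaling (-0.84) and in the mean of its probes (-1.35), and the other probe fell by 2.20 (adjusted p = 0.0009).

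**Figure D2:**
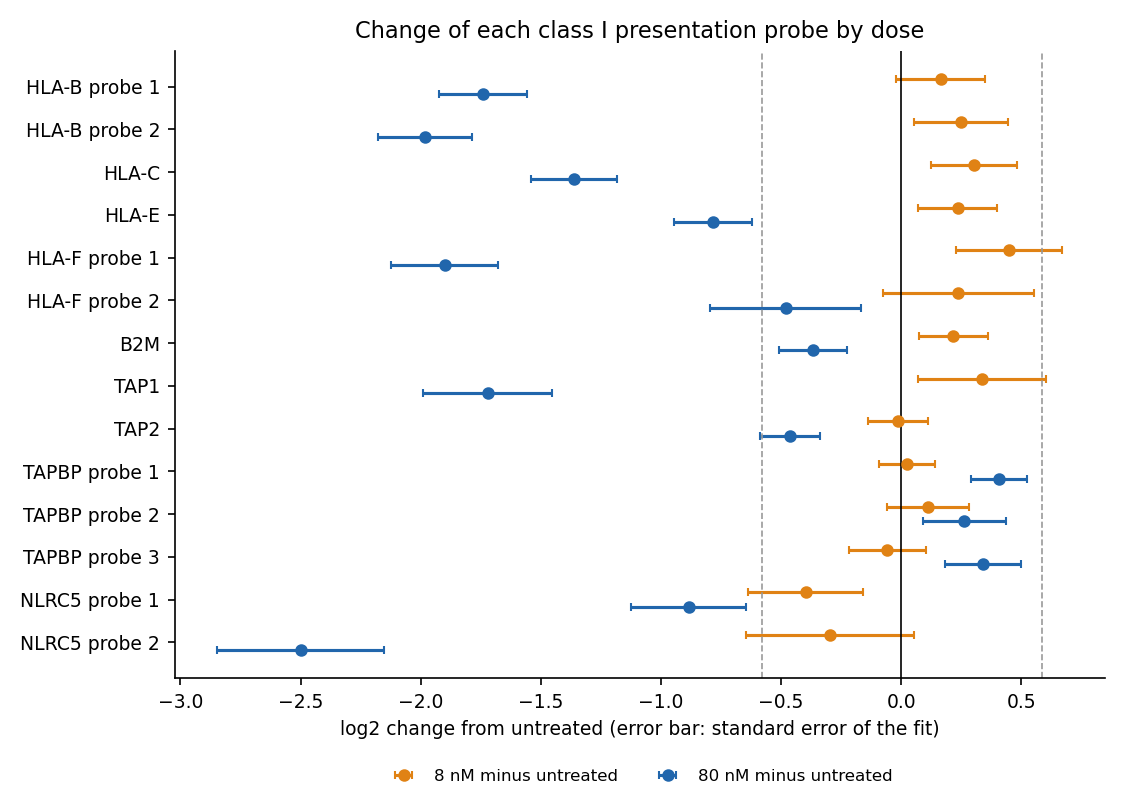
Log2 change from untreated of the 14 probes that passed the filter, at 8 nM and at 80 nM, with bars for the standard error of the fit and dashed lines at the fold limits of 1.5 and 0.67. Probe 1 of a gene is the one used for the gene. Probes of HLA-B agree at 80 nM, those of NLRC5 lie at -0.88 and -2.50, and at 8 nM every point lies between the dashed lines.

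In all, 6 of the 9 genes were called down-regulated at 80 nM against untreated, where 16.2% of all genes tested were, and 0 were called up-regulated, where 18.8% of all genes were. The 6 genes were HLA-B, HLA-C, HLA-E, HLA-F, TAP1 and NLRC5, and all 6 also had an adjusted p under 0.05. The median change of the 9 genes was -0.88, against 0.078 over all genes, and 8 of the 9 lay below that median. HLA-F and HLA-B ranked among the lowest 3.89% of all genes. By limma, all 9 genes had an unadjusted p under 0.05 in this comparison, TAPBP with the opposite sign, and B2M was at 0.054 after adjustment. A low p was common here, and the share of all genes with an unadjusted p under 0.05 was not counted. Over all 21832 genes, 4008 were up-regulated and 3467 down-regulated past the fold limit with an adjusted p under 0.05.

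Scaled to the 10 spike-in probes, the median of all genes at 80 nM moved from 0.078 to -0.20, and 72.1% of calls were downward in place of 46.4%. Of the 21832 genes tested, 5717 were then down-regulated in place of 3546. B2M (-0.65) and TAP2 (-0.74) also passed the fold limit, which made 8 of the 9 genes down-regulated, and TAPBP kept its sign (0.13). B2M had an adjusted p of 0.061 with this scaling. Relative to the median of all genes, the change of HLA-B was -1.82 and that of TAPBP 0.33. Each scaling subtracts a single value per array, so these relative changes are the same with either by arithmetic. Their equality is no check on the scaling.

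Against 8 nM, 80 nM DIG-MSK lowered HLA-B, HLA-C, HLA-E, HLA-F, B2M and TAP1, again 6 of the 9 genes, where 14.1% of all genes were down-regulated. None of the 9 was up-regulated, where 19.4% of all genes were. HLA-F fell by 2.35 ± 0.22 or 5.10-fold, followed by TAP1 with 4.17-fold, HLA-B with 3.75-fold, HLA-C with 3.17-fold and HLA-E with 2.02-fold. With spike-in scaling, 77.1% of the calls over all genes were downward in place of 42.1%. The comparisons with 80 nM share those arrays and their slide, so they are not independent of each other.

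At 8 nM none of the 9 genes was called. The calls were 0 up-regulated, where 4.23% of all genes were, and 0 down-regulated, where 2.84% were, and by limma without pairing of the arrays 0 of the 9 had an unadjusted p under 0.05. For all 9 genes the untreated and 8 nM arrays overlapped. Neither the share of all genes that overlapped nor the share with an unadjusted p under 0.05 was counted. Of the 9 estimates, 7 were above 0 and 8 were above the median of all genes, which was -0.058. With spike-in scaling, 21.2% of the calls over all genes were downward in place of 40.2%, and 0 of the 9 genes were called. HLA-F had the highest, 0.45 with a 95% interval from -0.059 to 0.96, then TAP1 with 0.34 (-0.27 to 0.95) and HLA-C with 0.30 (-0.11 to 0.71). HLA-E was at 0.23, B2M at 0.22, HLA-B at 0.16, TAPBP at 0.025 and TAP2 at -0.013. NLRC5 had the lowest, -0.40 (-0.95 to 0.15). These intervals leave room for changes past the fold limit in either direction in some genes, so a lack of calls is no sign that 8 nM left them as they were.

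Within the untreated and 8 nM groups most members were high or low on the same arrays. Untreated replicate 1 was above its group mean for 9 of 9 genes, by a median of 0.34, and 8 nM replicate 1 was above for 9 of 9, by a median of 0.30. Over all genes the same medians were 0.010 and 0.015. Untreated replicate 2 was above its group mean for 0 of 9 genes. This was not seen at 80 nM, where 5, 3 and 5 of the 9 genes were above the group mean on replicates 1, 2 and 3, with medians of -0.018 to 0.032. Untreated replicate 1 also had the lowest 75th percentile of its group, 831.7 intensity units against 1022 and 1096, while 8 nM replicate 1 had 1144, against 833.3 and 1170. The part of signal strength in this spread was not tested. Without that array, HLA-F (0.68) and TAP1 (0.63) were called up-regulated at 8 nM. NLRC5 was called down-regulated at 8 nM without untreated replicate 2 (-0.63) or without 8 nM replicate 1 (-0.61).

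**Figure D3:**
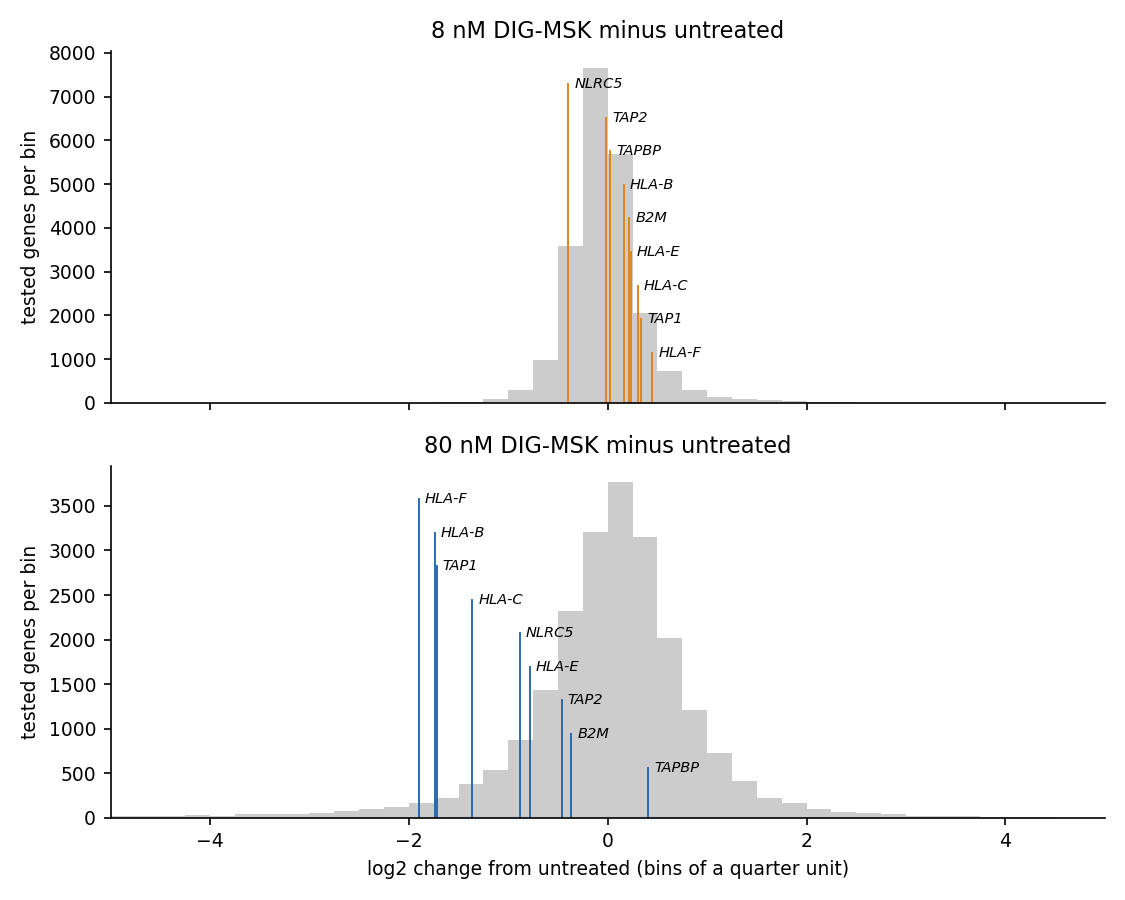
Distribution of the log2 change over all 21832 genes tested, as genes per bin, at 8 nM and at 80 nM, with the 9 genes marked by lines whose heights carry no meaning. Genes beyond 5 log2 units are not drawn. At 8 nM the 9 genes sit in the body of the distribution, between -0.40 and 0.45, and at 80 nM HLA-F, HLA-B, TAP1 and HLA-C sit in its lower tail.

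The proteasome genes that interferon induces were all lower at 80 nM. Of 5 such genes, 5 were called down-regulated, where 16.2% of all genes were, and 0 were called at 8 nM, with a median change of -0.93 at 80 nM. PSMB8, a catalytic subunit of the immunoproteasome, read -2.51, -2.90 and -2.48 in untreated cells and was not well above background on any 80 nM array. It was at least 9.70-fold lower there. The limma adjusted p of 2e-06 belongs to its fitted change of -4.09, which uses values below background, and not to that bound. PSMB9, a further catalytic subunit, fell by 2.76 ± 0.39 or 6.79-fold, from 3.37, 1.87 and 2.20 to -0.35, -0.29 and -0.21 (adjusted p = 0.00047). Replicate 1 stood high for PSMB9 in the untreated group, as it did for the 9 genes. PSMB10 fell 1.91-fold, and the genes of the activator that widens the proteasome gate, PSME1 and PSME2, fell by 0.65 and 0.69. Of the 4 constitutive genes, 0 were down-regulated and PSME3 was up-regulated by 0.60 (adjusted p = 0.0015), while PSMB5 changed by 0.24, PSMB6 by -0.074 and PSMB7 by -0.37.

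Of 9 genes for peptide trimming and the folding of class I molecules, 3 were down-regulated and 0 up-regulated at 80 nM, against 16.2% and 18.8% of all genes, with a median of -0.093. ERAP2, a peptidase that trims peptides in the endoplasmic reticulum, stood at 0.54, -0.27 and 0.04 in untreated cells, at 1.11, 0.63 and 0.68 at 8 nM and at -0.69, -0.59 and -0.65 at 80 nM. These 3 groups did not overlap. ERAP2 was up-regulated by 0.70 at 8 nM, with an adjusted p of 0.056, and down-regulated by 0.75 at 80 nM, with an adjusted p of 0.013. TAPBPL, a relative of tapasin, fell by 0.67 (adjusted p = 0.037). The used probe of the chaperone CANX fell by 1.17 at 80 nM and by 0.78 at 8 nM, while its other probe changed by 0.83 and -0.16, so that the direction for CANX is not settled. CALR changed by 0.34 and PDIA3 by -0.093 at 80 nM, both without a call.

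Of 21 regulators, 6 were down-regulated and 1 up-regulated at 80 nM, against 16.2% and 18.8% of all genes, and the median change was -0.13. IRF9, the DNA-binding partner of STAT2 in the interferon response, stood at 1.32, 1.00 and 1.07 in untreated cells, at 1.44, 1.09 and 1.11 at 8 nM and at -1.07, -1.04 and -1.02 at 80 nM. It fell by 2.17 ± 0.12 or 4.51-fold (adjusted p = 2.2e-06), and IRF1 fell by 1.78 ± 0.36 or 3.44-fold (adjusted p = 0.0032). STAT2 fell by 0.65. IRF2, which is counted among the 6, was not well above background at 80 nM. It was at least 1.49-fold below untreated, a bound under the fold limit, so its call rests on values below background. JAK2, a kinase of the interferon gamma receptor, was up-regulated by 0.77 (adjusted p = 3.3e-05). The untreated and 80 nM arrays did not overlap for any of IRF9, IRF1, STAT2 and JAK2. This also held for some regulators without a call, IFNGR2, CREB1 and RELA among them, and the share over all genes was not counted.

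RFX5, a subunit of the factor that recruits NLRC5 to class I promoters, moved in opposite directions with dose. It stood at 1.34, 1.26 and 1.10 in untreated cells, at 1.81, 1.89 and 1.91 at 8 nM and at 0.53, 0.68 and 0.61 at 80 nM. It was up-regulated by 0.64 at 8 nM (adjusted p = 0.0022) and down-regulated by 0.62 at 80 nM (adjusted p = 0.0003), and a further RFX5 probe gave 0.66 and -0.38. SP1, the factor of the GC box, changed by 0.039 at 8 nM and -0.16 at 80 nM, and SP3 by -0.074 and 0.0012, all without a call.

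Genes for class I-like molecules, which do not present peptides to T cells in the usual way, were counted apart. Of 11 listed genes, 9 had a probe on the array and 5 were tested, of which 4 were up-regulated and 0 down-regulated at 80 nM, against 18.8% and 16.2% of all genes, with a median of 0.88. ULBP1, a stress ligand for natural killer cells, was up-regulated 6.83-fold, from -3.33, -3.66 and -4.04 to -0.90, -0.94 and -0.87 (adjusted p = 2.9e-06). MR1, which presents vitamin metabolites, was up-regulated 1.94-fold at 8 nM (adjusted p = 0.0014) and 3.22-fold at 80 nM (adjusted p = 6.1e-06). MICA, a further stress ligand, rose 1.84-fold at 80 nM, and FCGRT, the receptor that recycles antibodies and also pairs with B2M, rose 1.59-fold. MICB changed by 0.49 at 80 nM, under the fold limit, and its other probe by 1.06. ULBP2, ULBP3, RAET1E and CD1D did not pass the filter, and RAET1G and RAET1L had no probe here.

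Of 4 further HLA genes tested outside class II, 3 were down-regulated and 0 up-regulated at 80 nM, against 16.2% and 18.8% of all genes. None of the 4 was called at 8 nM. Of 19 class II genes on the array, 11 were tested. At 8 nM 2 of them were up-regulated and 0 down-regulated, against 4.23% and 2.84% of all genes. At 80 nM 2 were up-regulated and 1 down-regulated, against 18.8% and 16.2%. CIITA, the class II counterpart of NLRC5, and the invariant chain CD74 did not pass the filter.

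**Figure D4:**
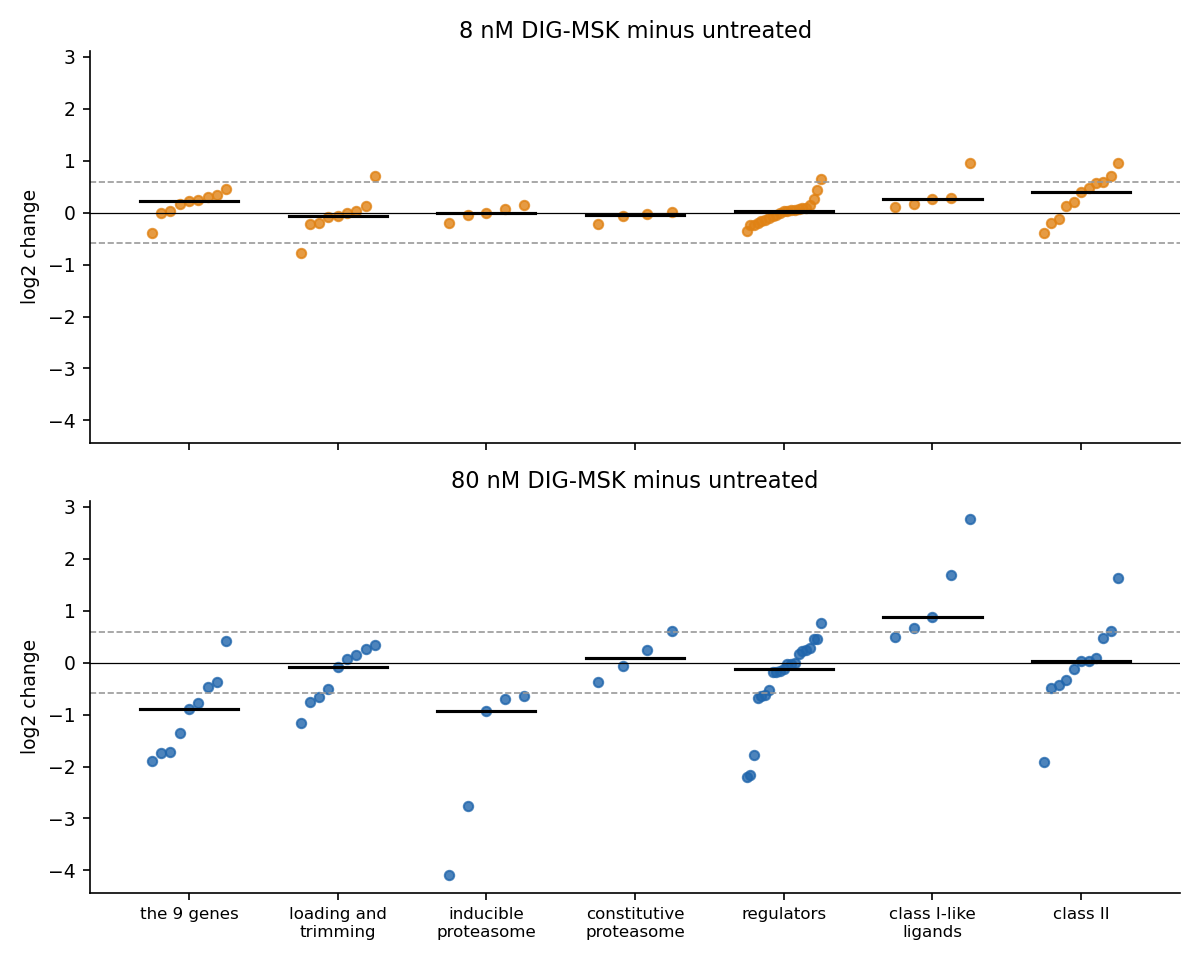
Log2 change from untreated of the 9 genes and of the other lists, at 8 nM and at 80 nM, with a point per tested gene, a bar at the median of the list and dashed lines at the fold limits. At 80 nM all 5 inducible proteasome genes lie below the lower line, 4 of 5 class I-like ligands lie above the upper line, and the lowest point of the inducible proteasome, PSMB8, is a fitted value below background.

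Of the 9 genes, 7 lie on chromosome 6, in the major histocompatibility complex, while B2M lies on chromosome 15 and NLRC5 on chromosome 16. Of these 7 genes, 5 were down-regulated at 80 nM, where 16.2% of all genes tested were. Between HLA-F and TAPBP, 96 other genes that are not HLA genes were tested, with a median change of 0.13. Of these 96, 7 were down-regulated (7.29%), with PSMB8 and PSMB9 among the 7. A further 17 of the 96 were up-regulated (17.7%), near the 18.8% of all genes. TAP1 lies between PSMB8 and PSMB9 in the order of RefSeq genes, and the starts of TAP1 and PSMB9, which are read in opposite directions, are 487 bases apart in the RefSeq windows. PSMB8, TAP1 and PSMB9 were all down-regulated at 80 nM. TAP2, on the other side of PSMB8, was not called. HLA-DMB, the next gene after PSMB9, which loads peptides on class II molecules, was up-regulated by 0.96 at 8 nM (adjusted p = 0.0031) and by 1.63 at 80 nM (adjusted p = 2e-05).

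**Figure D5:**
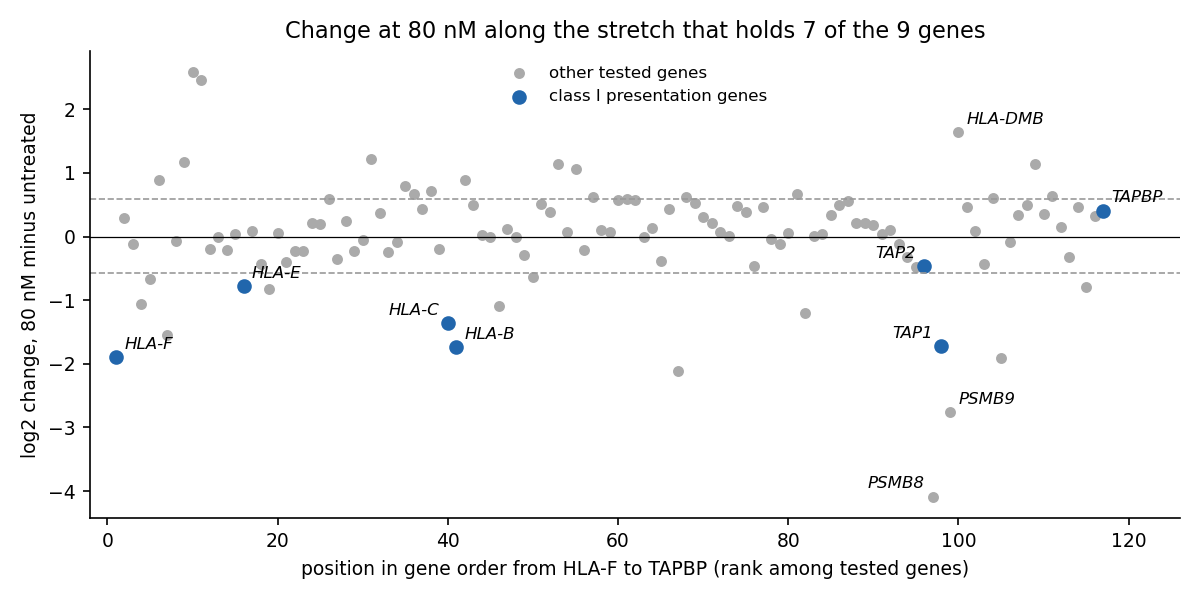
Log2 change at 80 nM against untreated of the 117 tested genes from HLA-F to TAPBP, by their rank in gene order, with the 7 class I presentation genes of this stretch as large blue points and dashed lines at the fold limits. Falls at HLA-B, HLA-C, TAP1, PSMB8 and PSMB9 stand beside many genes between the lines and HLA-DMB above them.

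Some genes outside the pathway followed the members closely over the 9 arrays, among 13989 other genes with a symbol. For TAP1 the closest was PLAAT4, with a Pearson correlation of 0.998, and UBE2L6 had 0.997. For HLA-E they were BTN3A1 (0.997) and BTN3A2 (0.996), which code for butyrophilins of the cell surface, and then TAP1 (0.994). For HLA-B they included PARP10 and TRHDE-AS1 (each 0.997), and HLA-C and HLA-F correlated with each other at 0.998. B2M was most like ALPK2 (0.981), HAPLN3 (0.973) and OASL (0.970), TAP2 like SP140 (0.974), ANKZF1 (0.972) and AMMECR1 (0.971), TAPBP like CXCL16 (0.987), PHF1 (0.979) and THAP7-AS1 (0.968), and NLRC5 like MAFF (0.971), MIR23AHG (0.968) and HOXB3 (0.966). The 9 arrays share the 3 groups and the slides, so these values describe mainly the difference between 80 nM and the rest.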

How the data were processed

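Gene expression was measured on Agilent SurePrint G3 arrays in A2780 cells, 3 arrays a group, and samples were grouped by the submitters' labels. The authors extracted spot intensity values with Feature Extraction 10.7.3.1, with background subtracted, and deposited them unscaled. They also deposited a table of log2 values, which tracked the log2 median signal and was used as an alternative. The arrays' number limits the precision.

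Control spots and outlier spots were left out, spots of a probe were averaged, and log2 values were taken relative to the 75th percentile of each array. Probes had to be well above background on the 3 arrays of some group to be kept, and the kept probe with the highest mean stood for its gene. Probes were named through RefSeq accessions (GRCh38.p14 table, 25715 of 27245 such probes matched), and no position was taken from that table beyond gene order and promoter windows. Comparisons were fitted on all 9 arrays with limma 3.58.1 (lmFit, contrasts, eBayes) in R 4.3.3, with Benjamini-Hochberg adjustment over 21832 genes. The procedure was tested on simulated data.

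The genes and lists were chosen with earlier results of these data known. Other genes of the pathway are named where called with an adjusted p under 0.05, at most 6 a list, or not measured. RFX5, ERAP2 at 8 nM, SP1, SP3, MICB, HLA-DMB, the marker genes given with changes and genes named without a call were chosen after their values were seen, as was the stretch from HLA-F to TAPBP. For each member the 3 genes most correlated over the 9 arrays are named, apart from some genes, HLA genes among them, that are not reported here or are given as counts only. Alternatives were normexp on the median signal (offset 50, in place of the planned mean signal), quantile, median and spike-in scaling, the authors' log2 values, no filter, detection required on every array, averaging the probes per gene, testing probes singly, fits of only the groups compared, the replicate block, calls by adjusted p, and leaving out arrays singly.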

Additional observations from a re-analysis of the deposited data

How the results depend on the processing

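The count of down-regulated genes among the 9 at 80 nM against untreated was 6 and lay between 5 (normexp background correction) and 8 (spike-in scaling) over the alternative settings, and against 8 nM it was 6 and lay between 5 (median scaling) and 8 (spike-in scaling). Leaving out single arrays gave 6 to 7 and 5 to 7, and the counts of up-regulated genes stayed at 0 in both. At 8 nM, leaving out single arrays gave 0 to 2 up-regulated and 0 to 1 down-regulated genes. The 2 were HLA-F and TAP1 without untreated replicate 1, and the 1 was NLRC5 without untreated replicate 2 or without 8 nM replicate 1, and the cause was not tested. Over all genes, calls at 8 nM were 923 up and 621 down, against 446 and 300 with normexp, 1205 and 324 with spike-in scaling, 613 and 294 with the authors' log2 values, 1163 and 1032 with no filter, 688 and 399 with detection required on all 9 arrays, 807 and 304 with an adjusted p under 0.05, and 990 and 1116 without 8 nM replicate 1. Calls at 80 nM were 4101 up and 3546 down, against 2400 and 2355 with normexp and 2217 and 5717 with spike-in scaling. Against 8 nM they were 4245 up and 3083 down, against 2315 and 2011 with normexp, 1743 and 5854 with spike-in scaling and 2651 and 2610 with the authors' log2 values.

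Estimates near 0 at 8 nM changed sign. TAP2 (-0.013) became 0.064 with spike-in scaling and ranged from -0.13 to 0.081 when single arrays were left out, above 0 without untreated replicate 1 or 3 or 8 nM replicate 2 or 3. TAPBP (0.025) became -0.057 on another probe and ranged from -0.062 to 0.15 when single arrays were left out, below 0 without untreated replicate 2 or 3 or 8 nM replicate 1 or 2. No estimate at 80 nM changed sign under any alternative.

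The groups share replicate numbers. Deviations of same-numbered untreated and 8 nM arrays correlated at 0.11, 0.0996 and 0.16 over all genes, and each of these 3 untreated arrays was closest to its own number. Those of untreated and 80 nM arrays correlated at -0.0067, -0.078 and -0.0027, so the numbers were not taken as pairs. With the replicate number as a block, 6 of the 9 genes were down-regulated at 80 nM against untreated, 6 against 8 nM, and 0 were called at 8 nM, where 1 of the 9 (HLA-F) had an unadjusted p under 0.05 by limma. A block on only the untreated and 8 nM arrays, chosen after seeing the data, also gave 0 calls, but by limma 5 of the 9 (HLA-F, NLRC5, HLA-C, TAP1 and HLA-E) had an unadjusted p under 0.05, with all 5 changes under the fold limit. The smallest adjusted p in that block was 0.077, for HLA-F. Leaving out replicate 1 of both untreated and 8 nM, also chosen after seeing the data, gave 0 calls at 8 nM as well. There HLA-F changed by 0.49 with an adjusted p of 0.034. By limma HLA-C, HLA-E, B2M and TAP1 had an unadjusted p under 0.05 there without an adjusted p under 0.05. How many of all genes had an unadjusted p under 0.05 in these fits was not counted, so the counts among the 9 have no background beside them. Probes that are not well above background, among them 1 of HLA-F at 80 nM and 1 of TAP2, allow only bounds.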
